A study of Gallus gallus with 8 samples.

Results

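Among 24759 chicken gene features with Ensembl identifiers, 51 had at least 50 normalised counts (CPM) in each of 7 keratinocyte libraries and under 1 CPM in a fibroblast library. CPM is a feature's count as a share of all gene counts of its library, scaled to a library of 1000000 counts. These 51 members were chosen by those levels, so their presence in every keratinocyte culture and their near absence from fibroblasts are what the rule asked for and are not results. What the rule did not set is how far each level moved above the floor between culture states. Between skin equivalents and confluent monolayers 29 of 51 members differed (56.9%), near the share among all features tested (49.5%). Among 2005 features with the same floor that fibroblasts also held, the share was 32.3%. Over the 7 libraries 7 of 51 members stayed within a 2-fold range (13.7%), against 41.9% of those 2005 features.

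The study grew primary chicken skin cells in culture and measured their polyadenylated RNA. The keratinocyte libraries were 3 skin equivalents, in which keratinocytes differentiate in a layered culture, 1 subconfluent culture, and 3 confluent monolayers. The fibroblast library came from 1 confluent culture of primary fibroblasts. No strain, age, genotype or treatment is stated, and it is not said that replicate libraries stem from different animals or dishes; the p-values therefore rest on library-to-library spread that may be technical in origin. Titles carry a code of 20, 34 or 56 for replicates 1, 2 and 3 of both replicated groups, the code 20 for the subconfluent library, and the mark wo on replicates 2 and 3. A number marked d is 8 in all 3 monolayer titles and 7 in that of skin equivalent 1, and no other title has one. The meaning of these marks is unknown here, and what d stands for cannot be told apart from the difference between monolayers and skin equivalents.

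Keratinocytes are the main cells of the epidermis. In the living tissue, cells of the basal layer divide and attach to the basement membrane, and their daughters move outward, stop dividing, change the keratins and adhesion proteins they make, and end as a cornified layer. A subconfluent culture is dominated by dividing cells, a confluent monolayer is crowded and begins to differentiate, and a skin equivalent is meant to build the layers. Genes of epithelial identity can stay active through all of these steps, while genes of a single layer come and go. Fibroblasts are the matrix-producing cells of the dermis and lack most epithelial genes.

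The files do not pair the Ensembl identifiers with gene symbols, and the gene table used here, on the GRCg7b assembly, held 0 Ensembl identifiers, so 0 of 51 members could be matched to a name. No role or sequence is therefore given for any member, and those that are singled out stand under their identifiers. The keratinocyte label could be checked on keratins that the files do name. The 5 named keratins looked at (Krt5L1, Krt5L2, Krt14L1, Krt14L2 and Krt15) had 2389 to 487834 counts in the skin equivalents, 133316 to 568977 in the subconfluent library, 24995 to 147023 in the confluent monolayers, and 0 to 117 in the fibroblast library. The lowest keratinocyte value was that of Krt5L2 in skin equivalent 3, and the highest fibroblast value that of Krt14L1. Markers of melanocytes, immune cells and endothelium have no named feature in the files, and the part of such cells in the results was not tested. In these bulk cultures, fewer cells of a kind and less RNA per cell cannot be told apart.

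Gene counts came to 28792451, 27329706 and 27815090 in the skin equivalents, 36728801 in the subconfluent library, 27940842, 30062632 and 30533216 in the confluent monolayers, and 28767054 in the fibroblast library. The lowest count of any member in a keratinocyte library was 1404, so counting error was small beside the level of each member. Whether it was also small beside the spread between replicates was not worked out for each member. In the fibroblast library 18 members had 0 counts and 33 had 1 to 25 counts, with 224 counts over all members, or 0.000779% of its gene counts. That library also differed in its unassigned fragments: those outside any feature made up 13.7% and ambiguous ones 2.53%, against 17.3% to 22.2% and 0.485% to 0.815% in the keratinocyte libraries. Whether its counting differed is unknown, and the part of this difference in the choice of members was not tested. Skin equivalents and monolayers were also apart. Fragments mapping to several places made up 7.06% to 8.66% in skin equivalents and 4.45% to 4.59% in monolayers. Those assigned to a gene feature made up 64.5% to 65.7% and 69.0% to 70.8%. The part of this in the comparisons below was not tested.

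The rule's thresholds cut through a continuous range. Of 13216 features with Ensembl identifiers under 1 CPM in fibroblasts, 275 reached 50 CPM in at least 1 keratinocyte library, 108 did so in every skin equivalent, 85 in the subconfluent library and every monolayer, and 51 in all 7. Among members, the lowest level in any keratinocyte library was 50.2 CPM for each of the nearest 2, and the nearest features left out stood at 49.0 CPM. On the fibroblast side the highest members had 0.869 and 0.800 CPM, and the nearest features left out had 1.01 and 1.08 CPM.

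Member levels spanned a wide range. Over the 7 keratinocyte libraries the mean level ran between 71.8 and 6054 CPM, with a median of 386 CPM; 7 members exceeded 1000 CPM, 40 lay between 100 and 1000 CPM, and 4 were under 100 CPM. The 51 members together took 3.09%, 3.41% and 3.19% of gene counts in the skin equivalents, 4.60% in the subconfluent library, and 2.59%, 3.62% and 3.44% in the confluent monolayers. The share was highest in the subconfluent library, and the skin equivalents, at 3.23% ± 0.165, lay inside the range of the monolayers, at 3.22% ± 0.555 (SD, n = 3 each). Scaled by TMM, edgeR's correction for composition, the summed level was 34057, 36455 and 34356 CPM in the skin equivalents, 45214 CPM in the subconfluent library, and 24285, 32064 and 30164 CPM in the monolayers. On that scale every skin equivalent stood above every monolayer, so the overlap depended on the scaling. The 2 most abundant members held 22.5%, 25.5% and 25.4% of the members' counts in the skin equivalents, 30.1% in the subconfluent library, and 20.5%, 33.6% and 33.5% in the monolayers.

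**Figure D1:**
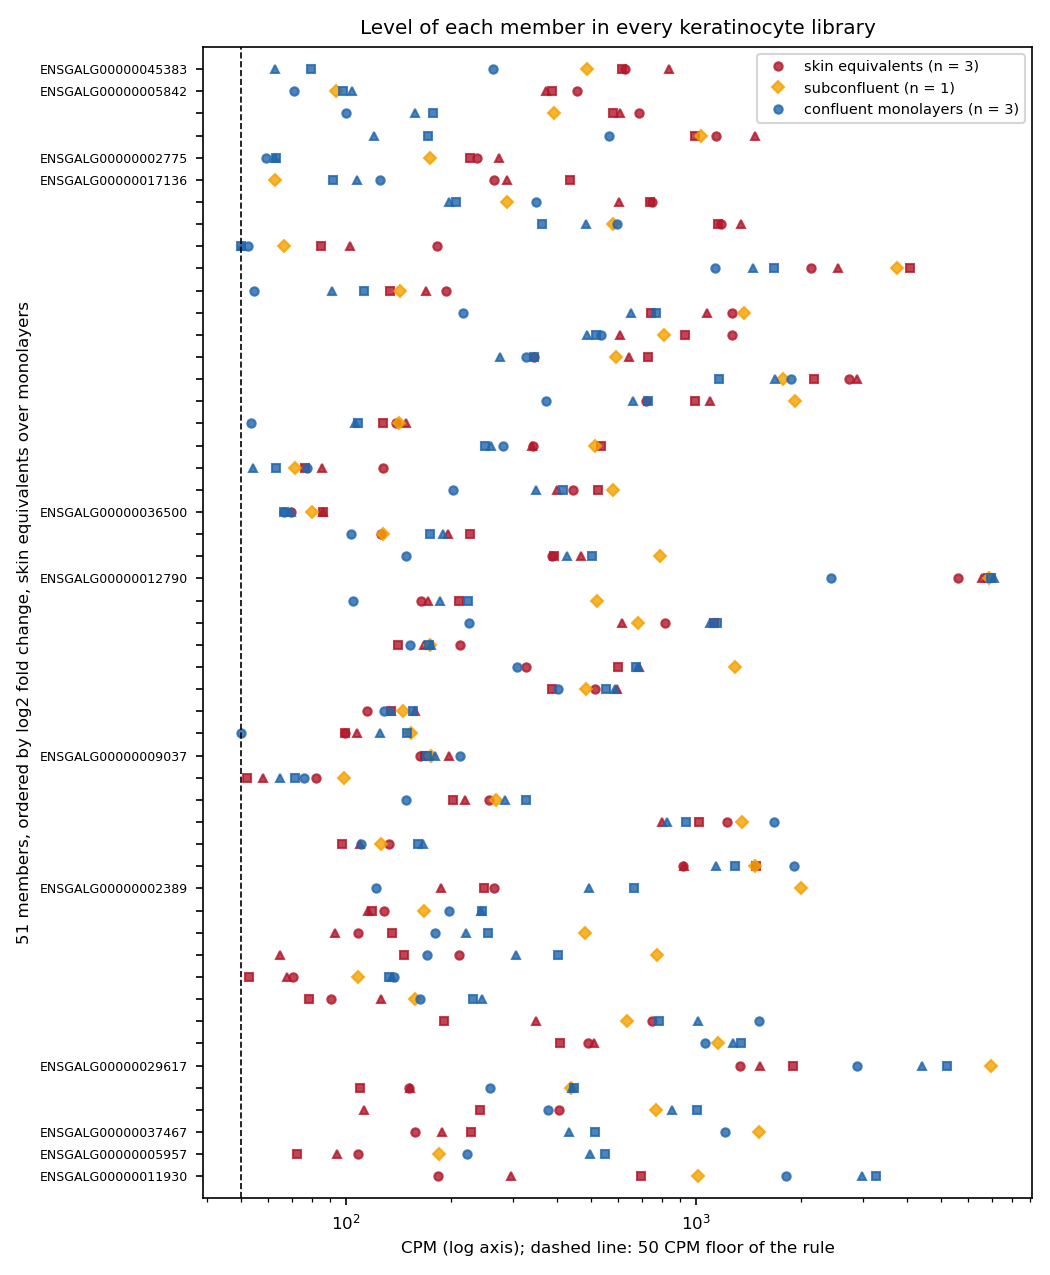
Each row is 1 of the 51 members, placed by its log2 fold change between skin equivalents and confluent monolayers, and the horizontal log axis gives CPM in each of the 7 keratinocyte libraries (circle, square and triangle are replicates 1, 2 and 3; a diamond is the subconfluent library; the dashed line is the 50 CPM floor). Skin equivalents lie to the right of the monolayers in the top rows and to the left in the bottom rows, and 3 members keep all 7 libraries within 1.5-fold.

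The spread of a member was first described by its highest over its lowest CPM among the 7 keratinocyte libraries. This ratio ran between 1.29 and 17.8, with a median of 3.60 and quartiles of 2.27 and 5.83. It was at most 2 for 7 members (13.7%), over 5 for 18 (35.3%) and over 10 for 5. As a comparison set with the same floor, the ratio was also taken over 2005 Ensembl features with at least 50 CPM in each keratinocyte library and at least 1 CPM in fibroblasts. Their median was 2.15, with quartiles of 1.72 and 2.95; 841 of them (41.9%) were at most 2, and 152 (7.58%) were over 5. These features were less abundant than the members, at a median of 153 CPM. No test was made of the difference between the sets, since members are not replicates.

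**Figure D2:**
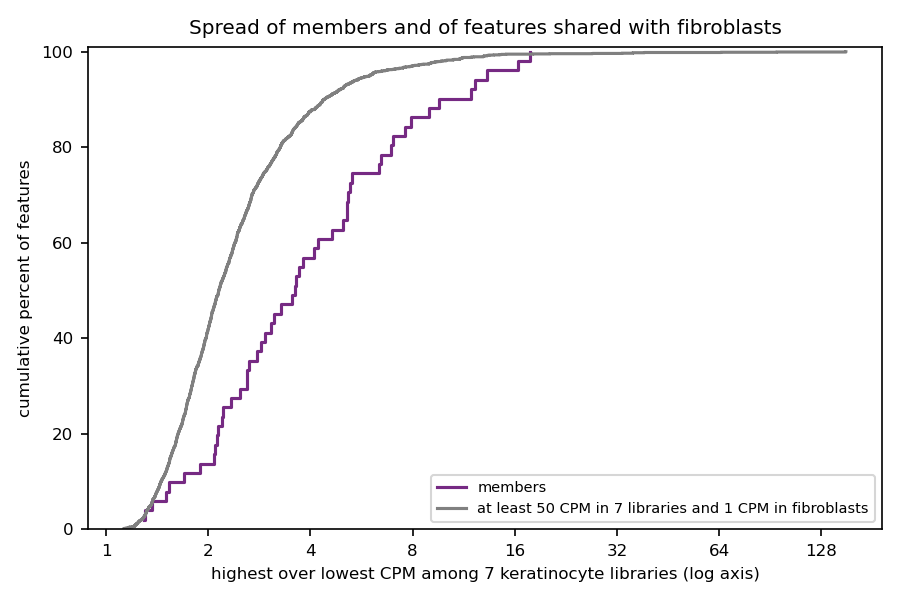
Cumulative percentage of features (vertical axis) against the highest over the lowest CPM among the 7 keratinocyte libraries (horizontal log axis), for the 51 members and for 2005 features with the same floor that were also present in fibroblasts. The members' curve lies to the right over most of its length, with medians of 3.60 and 2.15, while the largest single ratio, 151, belongs to the features shared with fibroblasts.

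Part of that spread lay within groups. Between replicates the median highest-over-lowest ratio of members was 1.44 among skin equivalents and 1.77 among confluent monolayers, against 1.31 and 1.34 for the features shared with fibroblasts. Monolayer 1, which has the code 20 and no wo mark, stood apart: monolayers 2 and 3 were within 1.5-fold of each other for all 51 members, with a largest ratio of 1.45, while monolayer 1 lay below both in 33 members and above both in 17. It was the lowest of the 7 libraries for 19 members (37.3%). Monolayer 1 also stood apart among the features shared with fibroblasts. There it lay below both in 43.3% and above both in 47.2%, against 64.7% and 33.3% of members, and was the lowest of the 7 in 18.5%. Without monolayer 1, over the remaining keratinocyte libraries, the median highest-over-lowest ratio of members was 2.64, and 16 members stayed within 2-fold. For the features shared with fibroblasts the median was then 1.93, and 1074 of 2005 (53.6%) stayed within 2-fold. The counts of calls in each comparison are therefore given with and without that library.

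The spread was also described by state means, whose highest-over-lowest ratio cannot exceed that of the libraries they average. The highest over the lowest of the 3 state means ran between 1.04 and 8.57, with a median of 2.19; it was at most 2 for 23 members (45.1%), at most 1.5 for 13, over 4 for 12 and over 5 for 6. For the features shared with fibroblasts the median was 1.67 and 1378 of 2005 (68.7%) were at most 2. By CPM over all gene counts, the subconfluent state was the highest of the 3 for 25 members (49.0%). The skin equivalents were highest for 16 (31.4%) and the monolayers for 10 (19.6%). Among the features shared with fibroblasts these shares were 33.3%, 25.2% and 41.5%. The lowest state was the subconfluent one for 5 members (9.80%), the skin equivalents for 22 (43.1%) and the monolayers for 24 (47.1%). Among the features shared with fibroblasts these were 29.9%, 46.8% and 23.3%. With TMM the skin equivalents were highest for 23 members (45.1%), the subconfluent culture for 21 (41.2%) and the monolayers for 7 (13.7%). The features shared with fibroblasts gave 38.2%, 33.3% and 28.5%. The lowest with TMM was the skin equivalents for 16 members (31.4%), the subconfluent culture for 3 (5.88%) and the monolayers for 32 (62.7%). Here the features shared with fibroblasts gave 33.4%, 29.9% and 36.7%. For members, both the state that led most often and the margin at the low end thus depended on the scaling.

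The order of members by level was also read across libraries, as a description over 51 members that share their libraries' depth. Spearman's rho lay between 0.904 and 0.941 among skin equivalents and between 0.818 and 0.992 among monolayers. It lay between 0.547 and 0.708 for a skin equivalent with a monolayer, between 0.695 and 0.764 for a skin equivalent with the subconfluent library, and between 0.795 and 0.868 for the subconfluent library with a monolayer. The lowest values were thus those of a skin equivalent with a monolayer, though their range overlapped that of skin equivalents with the subconfluent library. Monolayers 2 and 3 were the closest pair, at 0.992. Monolayer 1 with monolayers 2 and 3 gave 0.818 and 0.822, under the 0.868 and 0.830 of the subconfluent library with the same monolayers. The order was not taken over other features, so it is not read as a trait of members.

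The steadiest member over the 7 libraries was ENSGALG00000036500, with 69.6, 85.8 and 86.2 CPM in the skin equivalents, 79.9 CPM in the subconfluent library, and 66.6, 66.7 and 69.8 CPM in the confluent monolayers. Its highest level was 1.29 times its lowest, and skin equivalent 1 fell among the monolayers. ENSGALG00000009037 came next, at a ratio of 1.30, with 162, 168 and 197 CPM in the skin equivalents, 175 CPM in the subconfluent library, and 211, 170.1 and 179.7 CPM in the monolayers, so that the groups overlapped. ENSGALG00000014687, a steady member chosen after its values were seen, had a ratio of 1.37, with 115, 135 and 157 CPM in skin equivalents, 146 CPM in the subconfluent library, and 128, 154.9 and 134.8 CPM in monolayers.

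The most abundant member, ENSGALG00000012790, had 5618, 6818 and 6572 CPM in the skin equivalents, 6873 CPM in the subconfluent library, and 2423, 6963 and 7111 CPM in the confluent monolayers. Apart from monolayer 1, the other 6 libraries lay close together. It averaged 6336 ± 634 CPM in skin equivalents and 5499 ± 2665 CPM in monolayers (SD, n = 3 each), and its log2 fold change of 0.49 had a 95% interval of -0.46 to 1.44 (edgeR adjusted p = 0.345). Without monolayer 1 the log2 fold change was 0.04. The second most abundant, ENSGALG00000029617, had 1332, 1889.6 and 1522 CPM in the skin equivalents, 6977 CPM in the subconfluent library, and 2889, 5220.0 and 4428 CPM in the monolayers. The groups did not overlap, and the subconfluent library stood above all others. The level averaged 1581 ± 284 CPM in skin equivalents and 4179 ± 1185 CPM in monolayers (SD, n = 3 each), a log2 fold change of -1.12 ± 0.29 (SE, edgeR adjusted p = 0.0153). That call was lost on leaving out skin equivalent 1 (edgeR adjusted p = 0.0516), skin equivalent 3 (0.0575), monolayer 2 (0.0559) or monolayer 3 (0.0516).

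**Figure D3:**
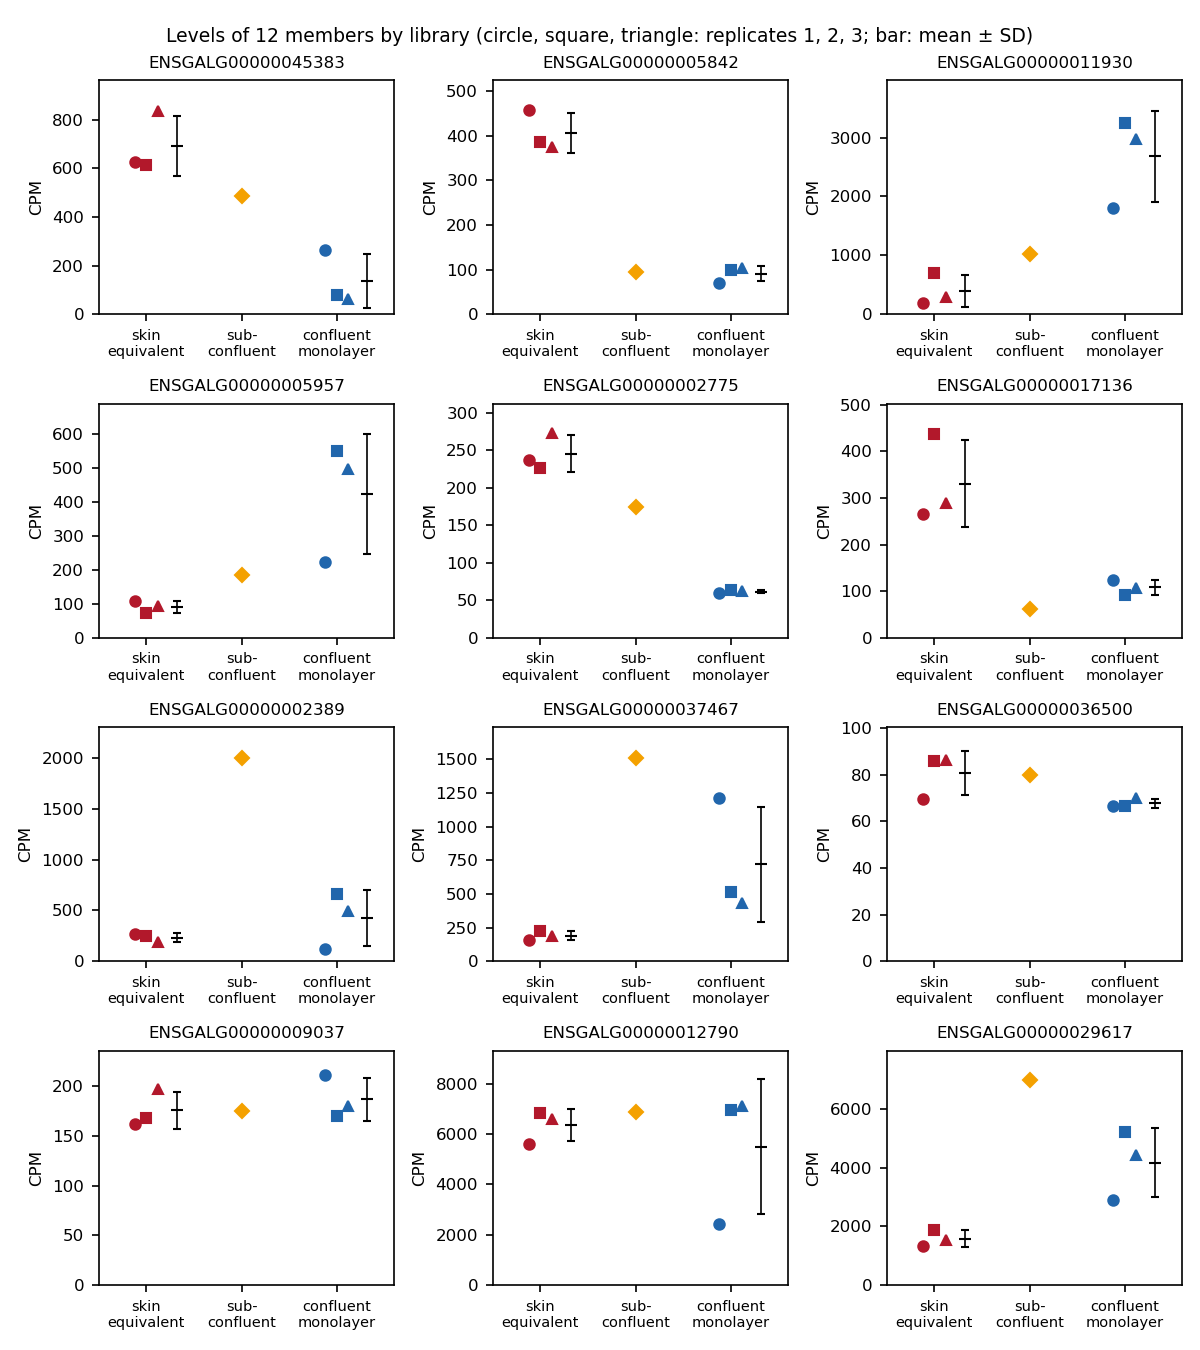
CPM (vertical axes, from 0) of 12 members in the skin equivalents, the subconfluent library and the confluent monolayers, where each symbol is a library and the bar beside a replicated group is its mean ± SD (n = 3). ENSGALG00000005842 and ENSGALG00000002775 are separated between skin equivalents and monolayers by far more than their replicates differ, ENSGALG00000036500 and ENSGALG00000009037 lie close to one level, and monolayer 1 stands apart in ENSGALG00000012790 at 2423 CPM.

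Skin equivalents against confluent monolayers was the comparison with replicates on both sides. It set a layered culture beside a confluent monolayer, and which difference between these cultures a change in a member stems from was not tested. Of the 51 members, 19 rose in skin equivalents, 10 fell and 22 did not pass the test (edgeR quasi-likelihood test, adjusted p under 0.05 over all 13230 features tested). The share called, 56.9%, was near the 49.5% of all features tested (25.9% higher and 23.6% lower), and 32.3% was the share of the 2005 features with the same floor (18.3% higher and 14.1% lower). The members that rose did so by log2 fold changes of 0.51 to 2.58, with a median of 1.31, and those that fell by -0.64 to -2.50, with a median of -1.12. Over all 51 members the median log2 fold change was 0.35, against 0.08 over all features, and the median size without sign was 0.88, against 0.87 over all features and 0.44 over those with the same floor. Scaling by total gene counts moved the median of all features to -0.18 and that of members to 0.05. It called 12 members higher and 11 lower, so higher calls made up 52.2% of the members' calls in place of 65.5%. Of all features, 2517 were then called higher and 3918 lower, against 3427 and 3122 with TMM. The balance of calls thus moved toward falls among all features too. Relative to all features the members' median was higher by 0.26 with TMM and by 0.24 with total counts.

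A call shows a difference, and a missed call does not show a steady level, so each member's 95% interval was set against a 2-fold bound. The interval lay wholly inside 2-fold for 10 of 51 members (19.6%), against 22.9% of all features and 49.5% of those with the same floor. For 7 members it lay wholly beyond 2-fold, against 21.9% of all features. The interval of the other 34 crossed the bound, so neither a steady level nor a 2-fold change was shown for them. Without monolayer 1, 17 members rose, 12 fell and 18 had an interval inside 2-fold. The 4 libraries with the wo mark alone gave 19 higher, 15 lower and 19 intervals inside 2-fold. With any 1 library left out, rises numbered 12 to 17, fewer than the 19 of the main fit each time. They were 12 without skin equivalent 3 and 12 without monolayer 3. Falls ran between 6 and 12, and were 6 without skin equivalent 3, monolayer 2 or monolayer 3. Without monolayer 3, 5 intervals lay inside 2-fold. For the fits with libraries left out no share of all features is given, so their counts are not read as a trait of members.

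**Figure D4:**
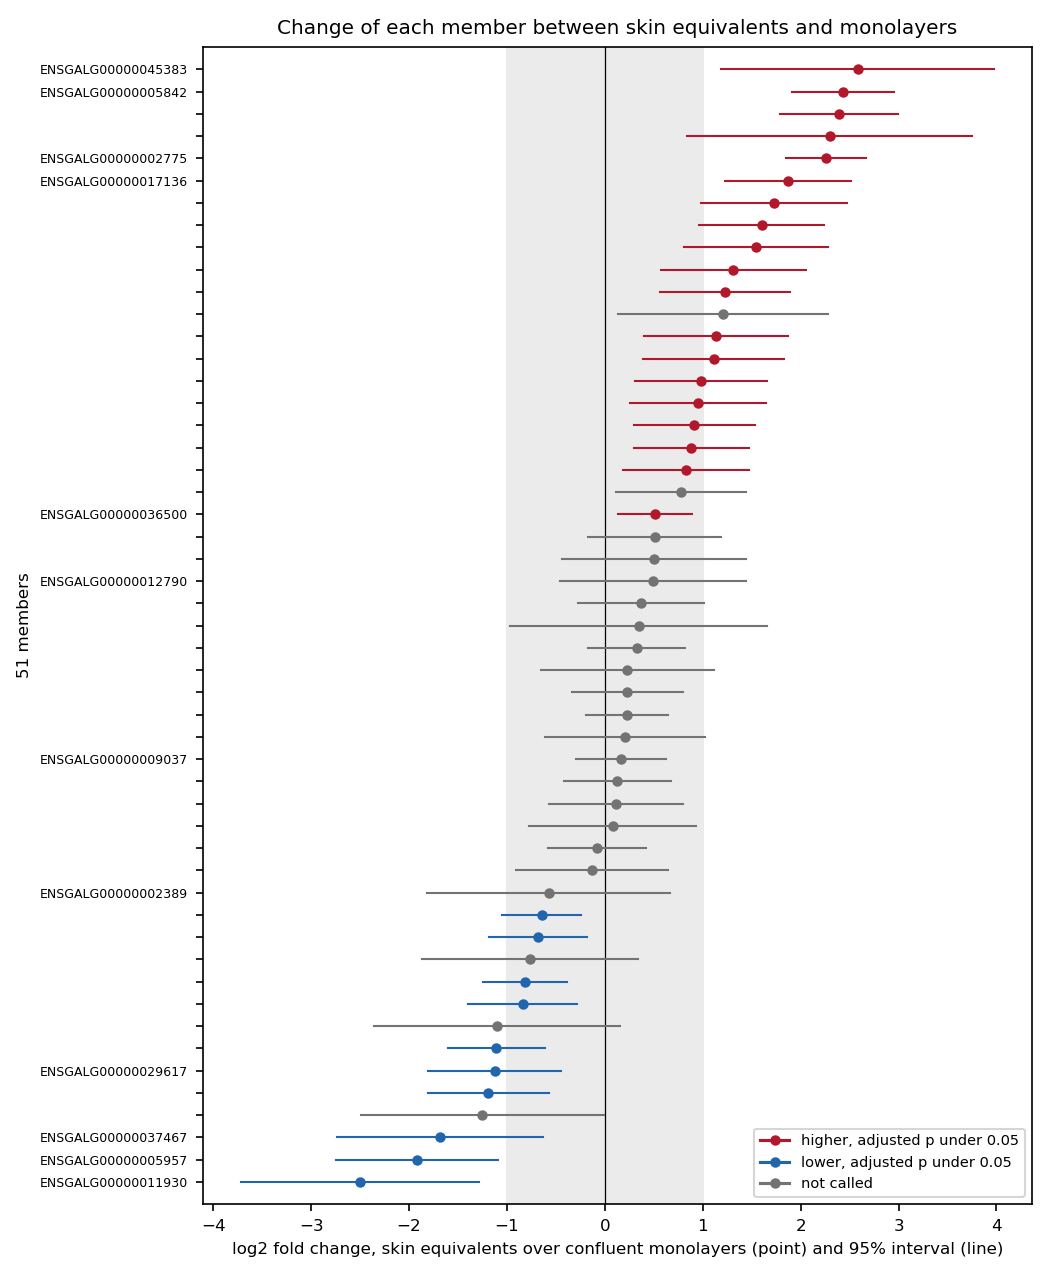
Log2 fold change of each of the 51 members in skin equivalents over confluent monolayers (point) with its 95% interval (line), from the largest rise at the top to the largest fall at the bottom; the grey band spans a 2-fold change either way. Of the members, 19 are called higher, 10 lower and 22 are not called, and 10 intervals lie wholly inside the band.

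By CPM over all gene counts, the libraries of both groups did not overlap for 26 members (51.0%), 15 higher and 11 lower in skin equivalents. The share was 61.8% of all features tested (25.3% higher and 36.5% lower) and 53.0% of those with the same floor. The calls above used TMM, and the overlap of members on that scale was not counted. The member with the largest rise, ENSGALG00000045383, had 625, 613 and 835 CPM in the skin equivalents, 487 CPM in the subconfluent library, and 263, 79.3 and 62.9 CPM in the confluent monolayers. Every skin equivalent stood above every monolayer, and monolayer 1 was the highest of its group. The means were 691 ± 125 and 135 ± 111 CPM (SD, n = 3 each), with a log2 fold change of 2.58 ± 0.59 (SE, edgeR adjusted p = 0.0101), and 3.47 without monolayer 1.

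ENSGALG00000005842 had 458, 387 and 374 CPM in the skin equivalents, 93.9 CPM in the subconfluent library, and 70.9, 98.3 and 104 CPM in the confluent monolayers. The subconfluent library lay among the monolayers, far below all skin equivalents. Means of 406 ± 45.2 CPM in skin equivalents and 91.0 ± 17.6 CPM in monolayers (SD, n = 3 each) gave a log2 fold change of 2.44 ± 0.22 (SE, edgeR adjusted p = 0.000269). This member was called under each of the 16 alternatives tried for this comparison, with log2 fold changes of 2.10 to 2.51.

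The largest fall was that of ENSGALG00000011930, with 183, 697 and 295 CPM in the skin equivalents, 1014 CPM in the subconfluent library, and 1809, 3256 and 2981 CPM in the confluent monolayers. It was also the member with the widest range over the 7 libraries, 17.8-fold, and the subconfluent level lay between both groups. The log2 fold change was -2.50 ± 0.52 (SE, edgeR adjusted p = 0.00658), and -3.20 without skin equivalent 2. ENSGALG00000005957 had 108, 72.6 and 94.4 CPM in the skin equivalents, 184 CPM in the subconfluent library, and 222, 551 and 498 CPM in the monolayers. Its groups did not overlap either, and the means of 91.6 ± 17.9 CPM in skin equivalents and 424 ± 177 CPM in monolayers (SD, n = 3 each) gave a log2 fold change of -1.92 ± 0.35 (SE, edgeR adjusted p = 0.00396). Both falls were called under all 16 alternatives. The floor bounds how deep a fall could be recorded: 6 members had a skin equivalent mean under 100 CPM, and 8 had a monolayer mean under 100 CPM and could not have fallen to 0.5 of it in every skin equivalent and remained members.

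The steadiest member illustrates how a small difference can pass. ENSGALG00000036500 averaged higher in skin equivalents by a log2 fold change of 0.51 ± 0.16 (SE, 95% interval 0.14 to 0.89, edgeR adjusted p = 0.0326), a change inside the 2-fold bound, and the call was lost in 9 of 16 alternatives, with a log2 fold change of 0.25 under total count scaling. For ENSGALG00000009037 the log2 fold change was 0.17 ± 0.20 (SE, 95% interval -0.29 to 0.63, edgeR adjusted p = 0.503), and its sign turned, to -0.09, with total counts. Both intervals lay inside 2-fold either way. These members were picked for their small range over the same libraries, so the intervals are no independent support for a steady level.

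The subconfluent library was then set beside the calls between skin equivalents and monolayers, as a description with no test. Of the 19 members that rose in skin equivalents, the subconfluent level lay above every monolayer in 13, within the monolayer range in 5 and below every monolayer in 1. Of all 3427 features that rose, 53.9% had the subconfluent library above every monolayer and 22.3% below. Set against the skin equivalents, the subconfluent level of those 19 was above all of them in 1, within their range in 8 and below all of them in 10, beside 9.92% above and 75.3% below among all features that rose. Of the 10 that fell, the subconfluent level lay above every skin equivalent in all 10, and it lay above every monolayer in 3, within their range in 2 and below every monolayer in 5. Of all 3122 features that fell, the subconfluent library was above every skin equivalent in 87.1% and below in 4.1%, and above every monolayer in 16% and below in 60.5%. These positions share libraries with the calls they are set beside.

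Subconfluent keratinocytes against confluent monolayers rests on 1 subconfluent library and has no replicate check; the test assumes that the lone library varies like the replicated groups. In that comparison 1 member rose and 0 fell (edgeR quasi-likelihood test, adjusted p under 0.05), beside 1.33% of 15019 features tested (0.606% higher and 0.726% lower) and 0.499% of those with the same floor (0.399% higher and 0.0998% lower). At an unadjusted p under 0.05, 16 members were higher and 0 lower, beside 12.7% and 10.7% of all features. DESeq2 called 8 members higher and 0 lower, beside 5.24% and 9.48% of the features it gave an adjusted p, and limma-voom 1 higher and 0 lower, beside 0.999% and 1.32%. Without monolayer 1, edgeR called 8 higher and 0 lower, and 15 intervals lay inside 2-fold. The interval lay wholly inside 2-fold for 10 members (13.6% of all features, 31.2% of those with the same floor) crossed the bound for 40 and lay wholly beyond it for 1 (3.58% of all features), with a median width of ± 0.92 on the log2 scale. The median log2 fold change of members was 0.39, against -0.00060 over all features. For the fit without monolayer 1 no share of all features is given, so its counts are not read as a trait of members. That fit also set a subconfluent library without the wo mark against monolayers that carry it and have other title codes. Culture state cannot be told apart from these marks there. Monolayer 1 shares the subconfluent title code and lacks the mark. The subconfluent library's CPM over that of monolayer 1 had a median of 1.51 for members and 0.94 for features with the same floor. It was more than 2-fold higher in 19 members and lower in 1, beside 211 and 224 of those features. The subconfluent library was above every monolayer in 25 members and below every monolayer in 7, beside 32.3% and 38.5% of all features.

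The member that rose, ENSGALG00000002775, had 237, 226 and 273 CPM in the skin equivalents, 174 CPM in the subconfluent library, and 59.2, 63.0 and 62.6 CPM in the confluent monolayers. The 3 monolayers were nearly level, at 61.6 ± 2.10 CPM (SD, n = 3), and the subconfluent library lay above them and below the skin equivalents. The subconfluent level was higher by a log2 fold change of 1.64 ± 0.22 (SE, edgeR adjusted p = 0.0370), a call that was lost without skin equivalent 2 (0.0543), skin equivalent 3 (0.0905), monolayer 2 (0.116) or monolayer 3 (0.186). Between skin equivalents and monolayers the same member had a log2 fold change of 2.26 ± 0.17 (SE), with the lowest edgeR adjusted p among members, 0.000145. By plain CPM the subconfluent library exceeded 2 times the monolayer mean in 14 of 51 members and lay under 0.5 of it in 2. Among the 2005 features with the same floor these numbers were 86 and 163. The 2 members under 0.5, ENSGALG00000011930 and ENSGALG00000005957, were also the largest falls in skin equivalents over monolayers, and these comparisons share the monolayers.

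Skin equivalents against the same subconfluent library showed more falls than rises, among members and among all features tested alike. The share of members called was near that of all features. Here 2 members rose and 8 fell in skin equivalents, beside 22.5% of all features (9.15% higher and 13.3% lower) and 12.3% of those with the same floor (4.99% higher and 7.28% lower). At an unadjusted p under 0.05 the counts were 5 higher and 9 lower, beside 17.7% and 20.4% of all features. The falls were fewer without skin equivalent 3 (3) and without monolayer 3 (5), and without monolayer 1 there were 5 rises, 9 falls and 13 intervals inside 2-fold. The interval lay wholly inside 2-fold for 8 members, beside 11.7% of all features and 29.9% of those with the same floor, and wholly beyond 2-fold for 6, beside 14.6% of all features. The members' median log2 fold change was -0.22, against 0.04 over all features. For the fits with a library left out no share of all features is given, so their counts are not read as a trait of members. The subconfluent library was above every skin equivalent in 24 members and below every one in 10, beside 43.6% and 34.6% of all features.

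The rises were those of ENSGALG00000017136 and ENSGALG00000005842. ENSGALG00000017136 had 265, 438 and 289 CPM in the skin equivalents, 62.5 CPM in the subconfluent library, and 125, 92.0 and 107 CPM in the confluent monolayers. The subconfluent library was the lowest of the 7, and the skin equivalents the highest. The log2 fold change was 2.53 ± 0.43 (SE, edgeR adjusted p = 0.00795) over the subconfluent library and 1.87 ± 0.27 (SE, edgeR adjusted p = 0.00165) over the monolayers. For ENSGALG00000005842 the log2 fold change over the subconfluent library was 2.24 ± 0.34 (SE, edgeR adjusted p = 0.00545).

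The deepest falls were in members with a peak in the subconfluent library. ENSGALG00000002389 had 265, 247 and 187 CPM in the skin equivalents, 1997 CPM in the subconfluent library, and 122, 665 and 494 CPM in the confluent monolayers. The subconfluent level stood above every other library, and the monolayers spread around the skin equivalents. The log2 fold change of skin equivalents over the subconfluent library was -2.97 ± 0.68 (SE, edgeR adjusted p = 0.0225), and the call was lost without skin equivalent 1 (0.0534) or skin equivalent 3 (0.0720). Against the monolayers, neither the subconfluent library (log2 fold change 2.39 ± 0.69, SE, edgeR adjusted p = 0.104) nor the skin equivalents (log2 fold change -0.57, edgeR adjusted p = 0.400) passed the test. ENSGALG00000037467 had 158, 227 and 188 CPM in the skin equivalents, 1512 CPM in the subconfluent library, and 1213, 515 and 434 CPM in the monolayers. Monolayer 1 was close to the subconfluent library, with which it shares the title code 20, and the other monolayers lay lower. Over all members this pair was not the closest, as its Spearman's rho of 0.795 was the lowest for the subconfluent library with a monolayer. The log2 fold change was -2.86 ± 0.55 (SE, edgeR adjusted p = 0.0127) over the subconfluent library and -1.68 ± 0.45 (SE, edgeR adjusted p = 0.0179) over the monolayers.

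Across the 3 comparisons, 6 members had an interval inside 2-fold each time, among them ENSGALG00000036500, ENSGALG00000009037 and ENSGALG00000014687. For ENSGALG00000009037 the log2 fold change of the subconfluent library over the monolayers was 0.03 (95% interval -0.61 to 0.67) and that of the skin equivalents over the subconfluent library was 0.14 (-0.51 to 0.78). The comparisons share libraries, so these 6 are a count and not repeated evidence. How many other features did so in all 3 was not counted. In each comparison alone, the features with the same floor had such an interval more often than members did.

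Features that the files name by symbol lay outside the rule, and 9 of them met the same CPM thresholds: EDQL-EDC, Krt5L1, Krt5L2, Krt8, Krt9LC1, Krt14L2, Krt15, Krt23 and Krt80. Keratins are the filament proteins of epithelial cells. Krt15 had 2458, 3210.2 and 2601 CPM in the skin equivalents, 3849.6 CPM in the subconfluent library, and 1905, 2676 and 2431 CPM in the confluent monolayers. Krt5L2 had 300.0, 1174 and 85.9 CPM in the skin equivalents, 15491 CPM in the subconfluent library, and 4849, 4891 and 4462 CPM in the monolayers. Krt15 was the steadiest of the 9, at a highest-over-lowest ratio of 2.02, and the other 8 ran between 3.89 and 180, the last of these for Krt5L2.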

How the data were processed

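The authors deposited raw whole-number counts for each gene feature, without normalisation, plus 4 rows of unassigned fragments that were left out of library sizes. The tools listed, without roles, in the submitters' processing notes are DESeq2 1.22.2, RSEM, STAR 2.6.1a and bcl2fastq 2.19.1.403. The libraries came from a strand-preserving poly(A) kit, per the labels. Neither the genome build nor the annotation or strand setting of the counting is known from the sources used here, so overlapping or near-identical genes may share counts. Members and lists were chosen with earlier results of these data known. Levels are CPM over all gene counts. Tests ran on all features with edgeR 4.0.16 in R 4.3.3 (TMM, filterByExpr, robust quasi-likelihood fit, Benjamini-Hochberg adjusted p under 0.05): skin equivalents against monolayers on 6 libraries, the other comparisons on all 8. The 95% intervals come from the fold and its standard error. DESeq2 1.42.0 and limma 3.58.1 (voom), other scalings, filters, left-out libraries and a replicate block were alternatives. The lists of named genes and markers could not be matched to identifiers. Members named are, per comparison, the 2 largest rises and falls past the test whose libraries do not overlap, the 2 steadiest and the 2 most abundant.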

Additional observations from a re-analysis of the deposited data

How the results depend on the processing

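The members' median log2 fold change kept its sign under each alternative in each comparison. With total counts the median of all features turned negative in skin equivalents over monolayers (-0.18) and over subconfluent cells (-0.069). In subconfluent cells over monolayers it was negative under both scalings (-0.00060 with TMM, -0.14 with total counts). The state that led most often depended on the scaling. Between skin equivalents and confluent monolayers, total count scaling gave 12 members higher and a median log2 fold change of 0.053, and the 4 wo libraries alone gave 19 intervals inside 2-fold. DESeq2 called 8 members higher in subconfluent cells over monolayers, and 5 in skin equivalents over subconfluent cells, where limma-voom called 4. Whether same-numbered libraries share a source is unknown. Deviations of same-numbered libraries from their group means correlated at -0.08, -0.16 and 0.16, and those of other pairs at -0.21 to 0.22. Each mean held only 3 libraries, which ties the deviations to each other, so these values cannot settle pairing. With the replicate block, skin equivalents against monolayers gave 19 members higher and 11 lower, skin equivalents against subconfluent cells 3 and 7, and subconfluent cells against monolayers 0 higher, where ENSGALG00000002775 had an edgeR adjusted p of 0.0799. ENSGALG00000037467 lost its call over subconfluent cells under that block alone (edgeR adjusted p = 0.0696). Leaving out 1 library at a time, skin equivalents against monolayers gave 12 to 17 members higher, 6 to 12 lower and 5 to 18 intervals inside 2-fold; subconfluent cells against monolayers gave 0 to 8 higher and 4 to 15 intervals; skin equivalents against subconfluent cells gave 2 to 5 higher, 3 to 9 lower and 5 to 13 intervals. Members within 2-fold over the libraries numbered 7 to 16, and by state mean 21 to 24. Scaled by TMM, the median highest-over-lowest ratio was 4.10 for members and 2.13 for the features shared with fibroblasts. A keratinocyte minimum of 25 CPM gave 88 members, of which skin equivalents against monolayers called 29 higher and 14 lower, subconfluent cells against monolayers 1 higher and 1 lower, and skin equivalents against subconfluent cells 8 higher and 13 lower. A minimum of 100 CPM gave 33 members, with 9 higher and 6 lower, 0 higher and 0 lower, and 0 higher and 6 lower in the same order of comparisons. A fibroblast maximum of 0.1 CPM gave 27 members, with 11 higher and 4 lower, 0 higher and 0 lower, and 1 higher and 3 lower. A maximum of 5 CPM gave 75 members, with 25 higher and 11 lower, 1 higher and 0 lower, and 5 higher and 10 lower. Scaling the rule itself by TMM gave 51 members, 48 of them shared. The cause of these differences was not tested, beyond the changed number of members or libraries. The changed thresholds were read on the main fits, where 49.5%, 1.33% and 22.5% of all features were called, in the same order. Apart from the total count calls and the DESeq2 and limma-voom shares given earlier, no share of all features is given for the refits. Their member counts are therefore not read as a trait of members. No member had fewer than 1404 counts in a keratinocyte library; with 3 libraries in a group and 1 subconfluent library, 34, 40 and 37 members, in the same order of comparisons, had an interval that crossed the 2-fold bound.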
